A study of Mus with 15 samples.

Results

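The homeobox genes Lbx1, Lbx2, Uncx, Barx1, Barx2, Barhl1, Barhl2, Tlx1 and Tlx3 carried H2AK119ub1 (H2Aub) peaks in all 11 peak lists made from mouse thalamus. These 9 genes of 49943 placed on chromosomes 1 to 19, X and Y were taken by name. They were chosen because the windows at the gene ends of Lbx1, Uncx and Barx1 lay almost wholly under peaks in every list, so the levels below are a description of genes selected on this readout and carry no test. A member's values are those of its gene body with 20 kb added at each end, called its window. H2Aub is the form of histone H2A that bears 1 ubiquitin near its C-terminus, profiled here by ChIPmentation, a chromatin immunoprecipitation in which a transposase inserts the sequencing adapters.

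The mice were 2 to 4 months old and were either Maged1 WT, that is floxed littermates without deletion (labelled Maged1 Loxp), or Maged1-cKO (cKO), in which Cre under the Vglut2 promoter deletes Maged1. All received saline for 3 days, followed by 5 days of cocaine (20 mg/kg, intraperitoneal) or of saline. Each sample pooled 3 to 4 thalami according to the labels, and the lists numbered 3 for WT cocaine, 3 for WT saline, 2 for cKO cocaine and 3 for cKO saline. Whole thalamus was profiled, so cells that never expressed Vglut2-Cre keep Maged1 and contribute to every cKO list. Peak lists hold no measure of Maged1 expression, and neither the deletion nor the cell types present could be checked from them. The labels do not state that the samples of a group came from separate litters or days, so p-values measure the spread between these pools.

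Ubiquitin is placed on H2A by Polycomb repressive complex 1, and broad H2Aub domains are typical of genes for developmental transcription factors that are silent in a tissue. Homeobox genes encode proteins that bind DNA through a homeodomain and set cell identity in the embryo. Lbx1 acts in migrating muscle precursors and in dorsal interneurons of the spinal cord, and Lbx2 is its paralogue. Uncx patterns the posterior part of each somite. Barx1 acts in the stomach and in tooth mesenchyme, and Barx2 in muscle and cartilage. Barhl1 is needed for the survival of inner ear hair cells, and Barhl2 acts in the retina and spinal cord. Tlx1 is required for the spleen to form, and Tlx3 specifies excitatory neurons of the dorsal spinal cord.

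The lists hold peaks only. The study states a minimum depth for all samples, and the number of reads behind each list is unknown. The length under peaks ran from 4.24 to 17.2 Mb in 9 lists. It was 21.2 Mb in the cKO cocaine replicate 1 list and 27.6 Mb in the cKO saline replicate 1 list, which also stood apart in peak number (54653 and 80713, against 7271 to 26055) and in their highest fold over input (31.2 and 52.6, against 12.2 at most). The comparisons that include these 2 lists in covered share are therefore also given without them. WT cocaine lists covered 17.2, 15.0 and 10.4 Mb and WT saline lists 11.1, 5.55 and 8.41 Mb. Apart from the replicates 1, the cKO cocaine list covered 11.1 Mb and the cKO saline lists 7.67 and 4.24 Mb. List length thus moved with treatment in WT, and in cKO apart from the replicates 1. The comparisons of covered share below are also given with an equal number of peaks per list.

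Lbx1 (gene ID 16814, GRCm38 chr19:45232684-45236841) lay under some of the widest H2Aub peaks of the thalamus. Peaks covered its whole body in all 11 lists. Joining peaks separated by at most 1 kb gave a domain with a median width of 24351 bp, which ranged from 22653 to 25069 bp (SD 767 bp, n = 11). The domain began 11.1 kb before the lower-coordinate gene end (median, SD 0.668 kb) and ended 8.52 kb past the higher-coordinate end (SD 0.452 kb). With peaks joined over 1 kb, the SD of either border was thus under 1 kb. With no joining the width ran from 16734 to 24442 bp, and the lower-coordinate border stayed 10.3 to 11.6 kb before the gene. Joined over 3 kb the width ran from 22653 to 32844 bp. Gene ends are named by coordinate because strand was not given in the gene table used here. Bases covered in all 11 lists summed to 20099 of the window's 44158 bp, and the longest unbroken run of them was 16003 bp, from -10.3 to 5.67 kb relative to the lower-coordinate end. The widest single Lbx1 peak ranked between 1 and 18 by width among all peaks of its list. Its fold over input was 4.58 to 5.74 in 9 lists and at most 9.62 in the cKO replicates 1.

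**Figure D1:**
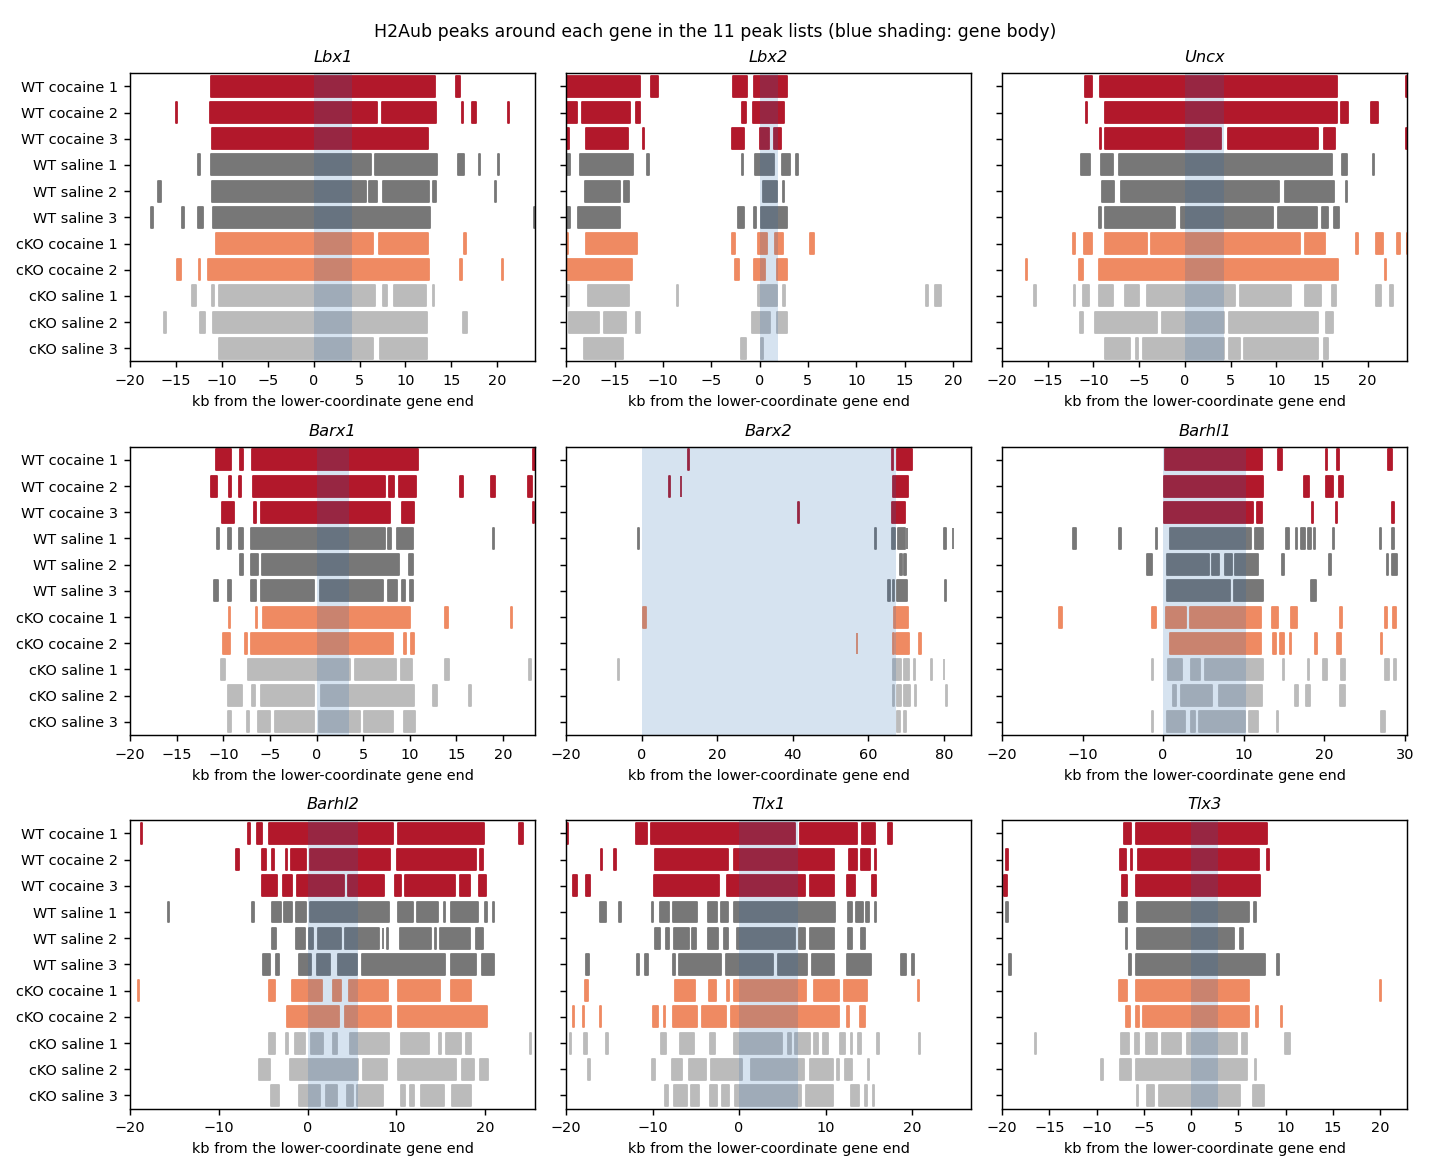
H2Aub peaks (bars) around each of the 9 genes in the 11 lists, 1 row per library coloured by group, against distance in kb from the lower-coordinate gene end, with the gene body shaded blue. Lbx1 shows peaks over a like stretch in every row, unbroken in some rows and in pieces in others. Joined over 1 kb, they span 22653 to 25069 bp. Barx2 has a domain at its higher-coordinate end and scattered short peaks elsewhere. Lbx2 shows a short domain over the gene and another that reaches over Tlx2 at the left.

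Uncx (gene ID 22255, chr5:139543865-139548179) had the widest domain with peaks joined over 1 kb, a median of 25751 bp with a range of 18156 to 27613 bp. With no joining its median was 16238 bp, below the 18210 bp of Lbx1. The narrowest came from cKO saline replicate 1, in which the domain broke into pieces over 1 kb apart. Elsewhere it was at least 24121 bp. It ran from 9.20 kb before the lower-coordinate end to 12.04 kb past the other (medians), and the gene body was covered for 91.9 to 100% of its length. It reached over the lower-coordinate neighbour 4930500L23Rik, a lncRNA gene whose body was covered for a median of 36.1%.

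Barx1 (gene ID 12022, chr13:48663036-48666507) had a domain of 17350 bp (14535 to 21657 bp), which began 7.38 kb before the gene and ended 6.76 kb past it. Its body was covered for 88.0 to 100%. The adjoining lncRNA gene Gm36606 lay under peaks for a median of 71.8% of its length. The best gene-end window of each gene, reaching 5 kb out from and 2 kb into the gene, was the value used for the choice. Its lowest cover over the lists was 100% at Lbx1, 91.7% at Uncx and 90.3% at Barx1, just inside the choice, and 80.2% at Tlx3, just outside it. Lbx1 was the only coding gene of 21887 with full cover in every list.

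Tlx3 (gene ID 27140, chr11:33200752-33203588) resembled Lbx1 at a smaller scale. Its body was covered in full in all 11 lists, and its domain spanned 13754 bp (10872 to 15742 bp). The domain began 6.91 kb before the gene (SD 0.816 kb) and ended 4.07 kb past it (SD 1.04 kb). It stopped short of Ranbp17, 8205 bp away, whose body held a peak in 1 of 11 lists.

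Barhl1 (gene ID 54422, chr2:28907680-28917984) carried a domain that matched the gene itself. It began 0.495 kb inside the lower-coordinate end (median) and ended 1.96 kb past the other end with an SD of 0.262 kb, and it measured 11567 bp (8995 to 12274 bp). Nearby Ddx31, an RNA helicase gene 2104 bp away, held a peak in its body in 3 of 11 lists, and this never covered more than 1.01% of it.

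Barhl2 (gene ID 104382, chr5:106452523-106458166) and Tlx1 (gene ID 21908, chr19:45150092-45156943) had broken domains. At Barhl2, positions 9.12 to 10.1 kb from the lower-coordinate end were covered in 1 to 5 lists, between stretches covered in up to all 11. The domain ran across it in 4 lists, at 21930 to 26604 bp, and measured 4443 to 13804 bp in the others, where further gaps in or beside the gene also cut it (median of all 11, 13170 bp). In cKO saline replicate 3 it lay wholly beyond the gap. The lncRNA gene Gm33151, which adjoins Barhl2, was covered for 88.9 to 100% of its length. At Tlx1 a like gap lay at 11.01 to 12.51 kb, and the domain measured 10888 to 27709 bp (median 16195 bp). Tlx1 and Lbx1 are neighbours on chromosome 19, with 75740 bp from gene to gene, and the 35740 bp between their windows were covered for a median of 1.69%, so the domains were separate.

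Lbx2 (gene ID 16815, chr6:83086365-83088243) and Barx2 (gene ID 12023, chr9:31846044-31913285) held the shortest domains of the 9 genes. At Lbx2 the stretch over the gene body had a median width of 2769 bp (220 to 5652 bp), and body cover ranged from 11.7 to 100%. A wider stretch in the same window, 5462 bp (3998 to 10534 bp), reached over the related homeobox gene Tlx2 and past it towards Lbx2. The body of Tlx2 was covered for a median of 100%. Pcgf1, which encodes a subunit of Polycomb repressive complex 1, lies between Tlx2 and Lbx2 and held a peak in its body in 1 of 11 lists, of 134 bp. Barx2 is long, at 67242 bp, and a median of 0.912% of its body was covered. Its domain of 4155 bp (898 to 5300 bp) sat at the higher-coordinate end, from which it reached 3.26 kb outwards. In WT saline replicate 2 and cKO saline replicate 3 that domain did not touch the body.

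By share of the window under peaks, Lbx1 and Uncx came first, with medians over 11 lists of 55.7% (49.4 to 57.5%) and 55.2% (48.2 to 60.8%). Barhl2 followed at 43.8% (30.1 to 54.7%), Tlx1 at 42.9% (28.8 to 56.9%) and Barx1 at 38.6% (33.9 to 46.1%). Lower were Tlx3 at 30.5% (24.7 to 34.1%), Barhl1 at 24.5% (20.5 to 28.6%), Lbx2 at 19.4% (11.3 to 31.8%) and Barx2 at 3.49% (1.16 to 4.34%). Each neighbouring pair in this order overlapped in range, apart from Lbx2 and Barx2. Over the 21887 coding genes the median was 0%, the 95th percentile 4.07% and the 99th 18.2%. A window peak in all 11 lists was found at 10.1% of coding genes and at all 9 members. Ranked from the top among coding genes, Lbx1 stood at 42, Uncx at 44, Barhl2 at 58 and Barx2 at 1303.

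**Figure D2:**
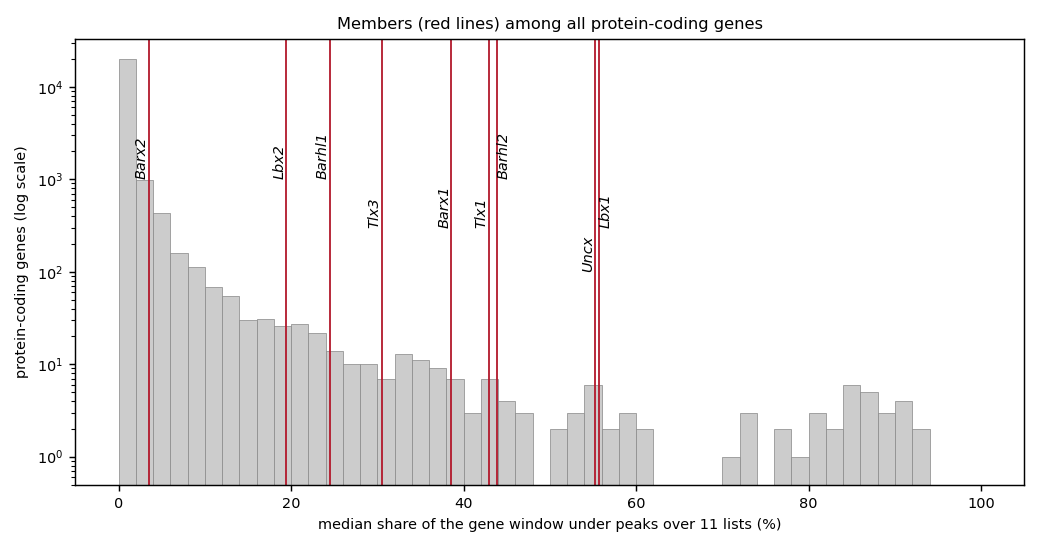
Number of protein-coding genes (log scale) by the median share of the gene window under H2Aub peaks over 11 lists (%), in bins 2 points wide, with a red line at each of the 9 genes. Barx2 at 3.49% lies below the 95th percentile of 4.07% and Lbx1 and Uncx at 55.7% and 55.2% in its thin upper tail, below a group of genes above 70%.

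The genes most like the leading members were judged by the mean absolute difference in covered share over the 11 lists, leaving out overlapping windows. For Lbx1 they were Nkx2-3 (3.53 percentage points), Dlx1 (4.16) and Mthfsd (4.29). The same 3 genes were nearest to Uncx, with Mthfsd at 3.37, Dlx1 at 3.93 and Nkx2-3 at 4.55 points. Nearest to Barx1 were En2 (3.05), Evx1 (3.24) and Hmx3 (3.57). All but Mthfsd are homeobox genes.

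Among 36 related homeobox genes of the same classes, 30 had a window peak in all 11 lists and 1, Isx, had none in any. The median of their median covered shares was 12.9%, against 38.6% for the 9 members, and none exceeded Lbx1. Among the highest were Hlx (46.9%) and Vax2 (42.0%). Hesx1, a pituitary gene, and Isx, an intestinal gene, had medians of 0%. Of 29 genes known as markers of thalamic cell types, 8 had a window peak in all 11 lists. These were all 5 markers of GABA neurons, 2 of 8 markers of thalamic glutamatergic neurons, 1 of 3 habenula markers and none of the 13 markers of astrocytes, oligodendrocytes, microglia and endothelium. The highest medians outside the GABA markers were 33.5% at Pou4f1, of the habenula list, and 32.1% at Gbx2, of the thalamic glutamatergic list.

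The height of the peaks varied little between members. In the 9 lists other than the cKO replicates 1, the highest fold over input of any peak at a member was 5.98, at Barhl1. The widest peak at each gene had a median fold between 4.23 at Barx2 and 5.04 at Barx1 over these 9 lists. In the cKO replicates 1, by contrast, 6 peaks at members exceeded the 12.2-fold maximum of the other lists. A 300 bp peak beyond Tlx1, 13.8 kb from its lower-coordinate end, reached 40.4-fold in cKO saline replicate 1, and a 2741 bp peak over the same place reached 15.0-fold in cKO cocaine replicate 1. A 947 bp peak at Lbx2 reached 20.3-fold in cKO cocaine replicate 1, and a 1948 bp peak there 13.2-fold in cKO saline replicate 1. These heights belonged to the lists that stood apart, and whether they come from the animals or the libraries was not tested.

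The design asks whether cocaine changes H2Aub and whether this depends on Maged1. At Tlx1 a larger share of the window was covered after cocaine in both genotypes. The values were 56.9, 47.9 and 46.6% in WT cocaine, 43.5, 34.5 and 44.4% in WT saline, 38.2 and 42.9% in cKO cocaine, and 28.8, 36.7 and 34.8% in cKO saline. The cocaine and saline groups did not overlap in either genotype. Cocaine minus saline, averaged over the genotypes, was 8.41 percentage points (exact permutation test of treatment within genotype, two-sided, p = 0.010, adjusted p = 1 over 36800 genes with a peak). The smallest p of that test is 0.005.

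With peaks joined over 1 kb, the WT Tlx1 domain differed on the lower-coordinate side. It began 11.97, 9.70 and 9.80 kb before the gene in WT cocaine and 3.64, 3.65 and 7.60 kb before it in WT saline. In cKO cocaine it began 1.37 and 9.91 kb before the gene. In cKO saline it began 3.39 and 0.555 kb before the gene in replicates 3 and 1 and inside the gene in replicate 2. Joined over 3 kb, the WT domain began 11.97, 9.70 and 9.80 kb before the gene with cocaine and 10.07, 9.72 and 11.85 kb with saline, which overlapped, so the difference at 1 kb lay in gaps of between 1 and 3 kb. This stretch holds the lncRNA gene Gm35923, covered for 15.7 to 100% of its length. Tlx1 domain width averaged 23077 ± 4012 bp (SD, n = 3) with cocaine and 15970 ± 2219 bp (SD, n = 3) with saline in WT, 19432 ± 4577 bp in cKO cocaine (SD, n = 2) and 12277 ± 1769 bp in cKO saline (SD, n = 3).

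Uncx, Barhl1 and Barx2 also reached an unadjusted p of at most 0.05. At Uncx the covered share was 60.8, 60.7 and 54.4% in WT cocaine against 59.3, 54.6 and 52.8% in WT saline, which overlapped. It was 57.5 and 60.3% in cKO cocaine against 50.1, 55.2 and 48.2% in cKO saline, which did not. The pooled difference was 5.41 points (exact permutation p = 0.035). At Barhl1 it was 3.51 points (exact permutation p = 0.030), from 26.5 ± 1.86% in WT cocaine, 24.6 ± 2.33% in WT saline and 22.3 ± 1.93% in cKO saline (SD, n = 3 each) and 27.5 ± 1.64% in cKO cocaine (SD, n = 2). At Barx2 it was 1.28 points (exact permutation p = 0.030), with a WT cocaine range of 3.49 to 4.34% and a WT saline range of 1.16 to 3.42%. The adjusted p was 1 for all 3 genes. With 1 library left out at a time, p was at most 0.05 in 4 of 11 cases at Uncx, 5 at Barx2 and 7 at Barhl1. Uncx also missed it with peaks of q at most 0.01 (exact permutation p = 0.09) and with a flank of 10 kb (exact permutation p = 0.15).

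**Figure D3:**
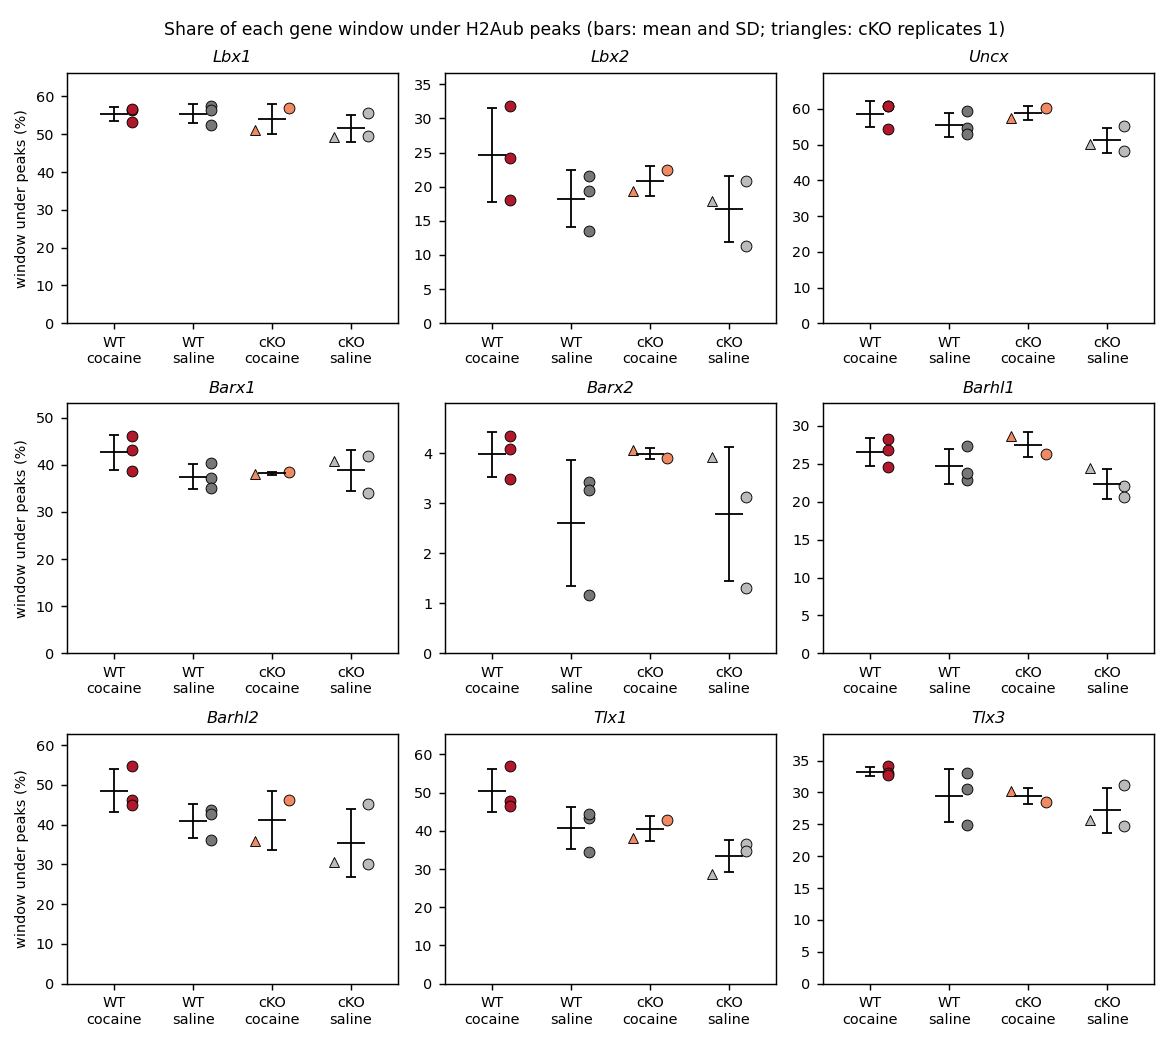
Share of each gene window under H2Aub peaks (%, linear axis from 0) in every library of the 4 groups, with horizontal bars for the group mean, error bars for the SD (n = 3, or 2 for cKO cocaine) and triangles for the cKO replicates 1. At Tlx1 the cocaine libraries lie above the saline libraries within each genotype, and at Lbx1 all 4 groups overlap between 49.4 and 57.5%.

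Lbx1 gave the smallest pooled difference. Its values were 56.3, 56.6 and 53.3% in WT cocaine, 57.5, 52.6 and 56.3% in WT saline, 51.2 and 56.9% in cKO cocaine, and 49.4, 55.7 and 49.7% in cKO saline. All 4 groups overlapped, and the pooled difference was 1.19 points (exact permutation p = 0.53). Pooled differences at the remaining genes were 6.73 points at Barhl2 (exact permutation p = 0.125), 5.33 at Lbx2 (p = 0.105), 2.99 at Tlx3 (p = 0.14) and 2.26 at Barx1 (p = 0.315). These values moved when 1 library was left out. Lbx1 ran from -0.216 points without cKO cocaine replicate 2 to 2.60 without cKO cocaine replicate 1. Lbx2 ran from 3.54 points without WT cocaine replicate 1 to 6.98 without WT cocaine replicate 3 (exact permutation p = 0.04 for the latter). Tlx3 gave 1.85 points without WT saline replicate 2 and 3.99 with cKO saline replicate 2 left out (exact permutation p = 0.05 for the latter). Barx1 ran from 1.04 points without cKO saline replicate 3 to 3.27 without WT cocaine replicate 3.

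All 9 pooled differences were above 0, and 4 of 9 members reached p of at most 0.05 upwards. Over all 36800 genes tested, 3.68% did so. Members are broadly covered genes, and among the 3779 genes with a window peak in all 11 lists the share was 18.4%, with 97.9% of them above 0. The median difference was 3.51 points over the members and 2.26 points over these 3779 genes. The upward direction was thus general to genes with H2Aub in every list. No gene passed an adjusted p of 0.05, and the smallest adjusted p was 1.

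The direction at the members depended on how lists of unequal length were compared. With the 7271 peaks of lowest q taken from each list, 5 of 9 pooled differences stayed above 0 and none reached p of at most 0.05, while 81.1% of genes with a window peak in all 11 lists were above 0. Tlx1 then gave 5.93 points (exact permutation p = 0.27), Lbx1 -10.2 and Uncx -6.39. With covered length scaled to the total length of each list, all 9 were below 0, from -0.181 at Barx2 to -39.3 at Lbx1, none reached p of at most 0.05, and 49.9% of genes with a window peak in all 11 lists were above 0. This scaling turns a domain of like width, such as that of Lbx1, downwards by construction where lists are longer, so its sign says nothing of these domains by itself. Without both cKO replicates 1, all 9 were above 0, and Tlx1 alone passed, at 8.42 points (exact permutation p = 0.017), and 98.4% of genes with a window peak in all 11 lists were above 0. Upward calls were then made at 8.23% of all tested genes and at 34.7% of genes with a window peak in all 11 lists. The counts with 1 library left out stand without shares over all genes, so they have no background. Leaving out 1 library at a time left between 1 and 6 members at p of at most 0.05, among them Tlx1 in 10 of 11 cases. The count was 1 without WT cocaine replicate 1, WT cocaine replicate 2, WT saline replicate 2 or cKO cocaine replicate 2, and 2 without WT saline replicate 3.

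**Figure D4:**
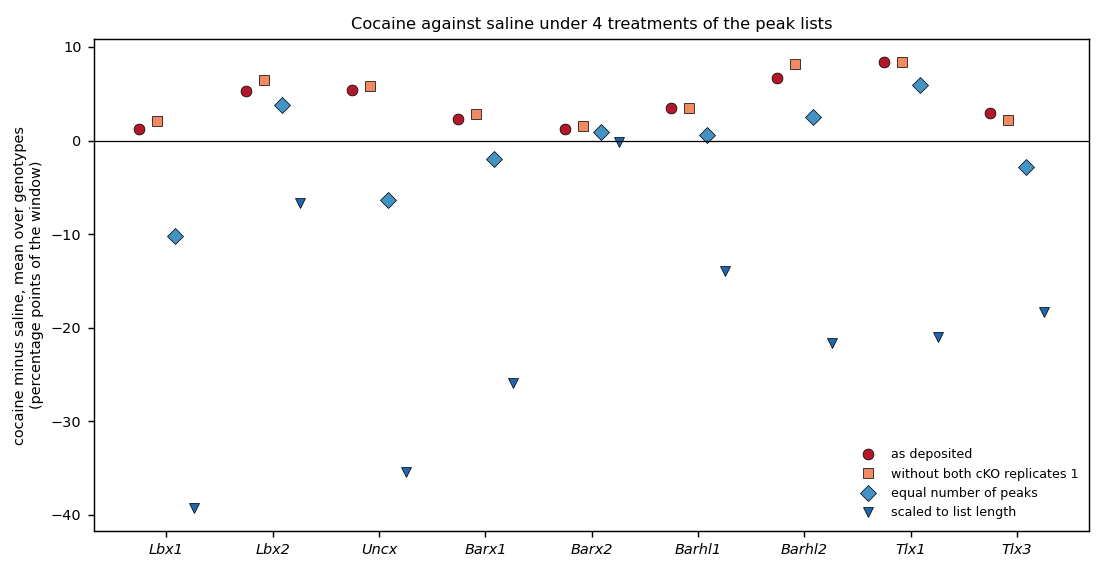
Cocaine minus saline in the share of the window under peaks (percentage points, mean over both genotypes) for the 9 genes, with the lists as deposited, without both cKO replicates 1, with 7271 peaks per list, and with covered length scaled to list length. All 9 points lie above 0 in the first and second series, 5 do so with equal peak numbers, and none with scaled lengths.

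Within WT alone, where 3 libraries against 3 allow no exact p below 0.10, cocaine was above saline without overlap at Barx2, Barhl2 and Tlx1. These are 3 of 9 members, against 14.6% of genes with a peak in either group and 32.9% of genes with a window peak in all 11 lists. The WT difference was 9.69 ± 4.54 points at Tlx1 and 7.68 ± 3.93 at Barhl2 (± SE), and -0.0808 ± 1.82 at Lbx1. At Barhl2 it was 4.61 points without WT cocaine replicate 1, and the pooled difference there ran from 4.13 points without cKO cocaine replicate 2 (exact permutation p = 0.35) to 9.33 without cKO cocaine replicate 1 (exact permutation p = 0.0125). With 7271 peaks per list the same 3 members separated upwards in WT, against 25.5% of genes with a window peak in all 11 lists. With lengths scaled to the list, none did, against 9.98% of these genes, and Lbx1, Lbx2, Uncx and Barhl1 separated downwards, against 9.39%. Within cKO, where 2 libraries faced 3, cocaine was above saline without overlap at Uncx, Barhl1 and Tlx1, again 3 of 9, against 3.18% and 12.6% of genes. The cKO difference was 7.75 ± 2.53 points at Uncx, 7.14 ± 3.32 at Tlx1 and 5.15 ± 1.61 at Barhl1 (± SE). In neither genotype was a member lower after cocaine without overlap. The WT count was thus close to the background of broadly covered genes. The cKO count lay above it. It was 0 with 7271 peaks per list, against 2.14% of genes with a window peak in all 11 lists. It was 7 without the cKO replicates 1, which leaves 1 cKO cocaine library against 2, and 79.6% of these genes separated upwards as well.

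Domain width, with peaks joined over 1 kb, separated cocaine from saline upwards at Barhl1 and Tlx1 in WT and at the same 2 genes in cKO. In WT this compares with 12.3% of genes with a peak and 22.7% of those with a window peak in all 11 lists, and in cKO with 5.76% and 20.0%. These calls depended on the joining distance. Joined over 3 kb, no member separated upwards in either genotype, while 18.3% of genes with a window peak in all 11 lists did in WT and 15.4% in cKO. With no joining, Barx2 and Barhl1 did in WT, where Tlx1 overlapped, against 32.2% of these genes. In cKO 6 members did, Barhl1 and Tlx1 among them, against 19.6%. In WT, Barhl1 domains measured 12077, 12274 and 12190 bp after cocaine and 11567, 11233 and 11908 bp after saline. In cKO they were 11817 and 11286 bp after cocaine and, after saline, 8995, 10963 and 11187 bp. The WT difference at Barhl1 was thus small beside the width of the domain. At Lbx1 the WT means were 24228 ± 609 bp with cocaine and 24246 ± 516 bp with saline (SD, n = 3 for both).

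Whether the cocaine effect differed by genotype was tested directly, as the cKO difference minus the WT difference. No member reached p of at most 0.05 by the exact permutation test, and the shares over all tested genes were 0.122% upwards and 0.139% downwards. The differences ran from -5.75 points at Barx1 (exact permutation p = 0.19) to 4.68 points at Uncx (exact permutation p = 0.425). Without cKO saline replicate 3, Barx1 reached p of at most 0.05. The differences were below 0 at 6 of 9 members, at all 9 with 7271 peaks per list, where Uncx turned to -18.3 points (exact permutation p = 0.575), at 4 without the cKO replicates 1 and at 1 with peaks of q at most 0.01. No member reached p of at most 0.05 under these settings. The tests have few libraries, and a p above the threshold does not show equal effects. At Tlx1, where cocaine was higher in both genotypes, the difference was -2.56 points (exact permutation p = 0.735), and its sign rested on single libraries, since it was 0.663 points without WT cocaine replicate 1 and 0.603 points when replicate 2 of WT saline was left out.

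Between genotypes, averaged over treatments, cKO minus WT was below 0 at 8 of 9 members, from -0.686 points at Barhl1 to -8.62 at Tlx1, and 0.0932 at Barx2. Of all tested genes 15.4% were below 0, and 55.6% of those with a window peak in all 11 lists. Tlx1 alone reached p of at most 0.05 (exact permutation of genotype within treatment, two-sided, p = 0.03, adjusted p = 0.614). Downward calls were made at 0.470% of all tested genes and at 3.49% of genes with a window peak in all 11 lists. With cocaine, cKO lay below WT without overlap at Barx1, Tlx1 and Tlx3, against 2.63% of genes with a peak in either group and 10.7% of those with a peak in all 11 lists. Tlx3 then had 30.3 and 28.5% in cKO against 34.1, 33.0 and 32.7% in WT, and Barx1 37.9 and 38.4% against 46.1, 43.2 and 38.6%. With 7271 peaks per list Tlx1 and Tlx3 separated and Barx1 did not, against 28.2% of genes with a window peak in all 11 lists, and with lengths scaled to the list no member did, against 4.30% of genes with a peak in either group. Barx1 was also lost with peaks of q at most 0.01, where Barhl1 lay higher in cKO, and with a flank of 10 kb, where Lbx2 and Barhl2 were lower. No share over all genes was computed under these settings, so these calls have no background. Without cKO cocaine replicate 1, the other cKO library lay below all 3 WT libraries at Barx1, Tlx1 and Tlx3 and above them at Lbx1, against 41.3% and 6.27% of genes with a window peak in all 11 lists. Without cKO cocaine replicate 2 the members called changed again, but a lone cKO cocaine library has no spread of its own. Without WT cocaine replicate 3, 6 members were lower. No share over all genes was computed under that omission, so the count has no background. Domains were narrower in cKO cocaine than in WT cocaine without overlap at Barhl1 (4.45% of genes with a peak, 18.3% of those with a window peak in all 11 lists). This depended on joining, since with none Tlx3 alone was narrower (16.4% of genes with a window peak in all 11 lists). Over 3 kb Barx1, Barhl2 and Tlx1 were narrower (13.4%) and Barhl1 was wider (6.72%). With saline, no covered share separated the genotypes, although the Barhl1 and Tlx1 domains were narrower in cKO without overlap (0.958% of genes with a peak, 6.19% of those with a window peak in all 11 lists). They overlapped when peaks were joined over 3 kb or not at all, and with no joining Uncx was narrower (3.97% of genes with a window peak in all 11 lists). The covered share of Barhl1 was lower in cKO saline than in WT saline without overlap with 7271 peaks per list (12.1% of these genes), and also without the cKO replicates 1 (18.5%). With another library left out, Lbx1, Uncx and Barhl2 were lower in cKO saline without replicate 2 of that group. Lbx1 and Tlx1 were lower without WT saline replicate 2, and Barx1 was higher without cKO saline replicate 3. No share over all genes was computed under these omissions, so these calls have no background. With 7271 peaks per list all 9 members were below 0 in cKO against WT, and Barhl1, Tlx1 and Tlx3 reached p of at most 0.05. Under that setting 88.7% of genes with a window peak in all 11 lists were below 0, and downward calls were made at 22.4% of them and at 3.06% of all tested genes. No member reached p of at most 0.05 with lengths scaled to the list. Without the cKO replicates 1, which leaves 40 arrangements, all 9 members were below 0 and none reached p of at most 0.05. Tlx1 then gave -6.31 points (exact permutation p = 0.15), and 85.3% of genes with a window peak in all 11 lists were below 0. Downward calls were then made at 1.83% of all tested genes and at 9.87% of genes with a window peak in all 11 lists.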

How the data were processed

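H2Aub ChIPmentation peak lists of 11 libraries were used, and the 4 input libraries were not analysed here. The authors trimmed reads with Cutadapt, mapped them to mm10 with Bowtie2 2.3.4.1 and called broad peaks per library with MACS2 2.1.1.20160309.3 against input, so the deposited lists hold 0-based peak start and end coordinates (other columns: a score of peak strength, a fold ratio over input, and p and q as −log10). The deposited −log10 q values show that lists run to q just under 0.10. The deposited score was not used in any result.

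Within each list, peaks of chromosomes 1 to 19, X and Y were merged, then intersected with genes of a GRCm38.p6 RefSeq table, which has mm10 coordinates and no strand (Python 3.11.15, NumPy 2.4.6, pandas 2.3.3). The covered share of the gene body ± 20 kb was computed per library. Domains joined peaks at most 1 kb apart, taking the stretch with the most covered bases in the window. Exact permutation tests, two-sided, permuted treatment within genotype or genotype within treatment (200 arrangements each) over all genes, with Benjamini-Hochberg adjustment, and were tested on simulated data. Without read counts the depth and its sampling error are unknown.

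All 9 members were named. Neighbours in the windows, the 3 nearest coding genes each for Lbx1, Uncx and Barx1, and the 3 highest and 3 lowest related homeobox genes were to be named by rule, and some of the last are not reported here. Of the neighbours, Dqx1, Ccdc142, Mir3470a, Gm31497 and Gm13394 are not described. Drgx was matched through its older name Prrxl1. The members, lists and rules were chosen with earlier results of these data known. Alternatives were stricter q limits, equal peak numbers, scaling to list length, a 10 kb flank, a replicate block, each library left out, and other joining distances. The Lbx2 stretch over the gene body, the groups' domain widths at other joining distances, the all-gene shares and separations under other settings and the comparison with genes that have a window peak in all 11 lists were added after seeing the data.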

Additional observations from a re-analysis of the deposited data

How the results depend on the processing

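The counts of members depended on how lists of unequal length were treated. With the lists as deposited, 4 members reached p of at most 0.05 for cocaine (exact permutation test), 1 for genotype and 0 for the difference of the cocaine effects. With equal peak numbers the counts were 0 for cocaine and 3 for genotype, and 0 members separated upwards in cKO. With lengths scaled to the list they were 0 for cocaine and 0 for genotype, 0 separated upwards in WT or in cKO, and 4 separated downwards in WT. A flank of 10 kb gave 2 for genotype and 3 for cocaine, and q at most 0.01 also gave 3 for cocaine, both without Uncx. Without both cKO replicates 1 the counts were 1 for cocaine, 0 for genotype and 7 separated upwards in cKO. Leaving out each of the 11 libraries gave 1 to 6 for cocaine, 0 to 2 for genotype, 0 to 1 for the difference, 3 to 6 separated upwards in WT, 3 to 7 upwards in cKO and 0 to 1 downwards in cKO. A left-out library leaves fewer arrangements, and a lone cKO cocaine library has no spread of its own. These counts stand without shares over all genes under the same omissions, so they have no background. Without both cKO replicates 1, 79.6% of genes with a window peak in all 11 lists separated upwards in cKO. The lowest cocaine count, 1, came without WT cocaine replicate 1, WT cocaine replicate 2, WT saline replicate 2 or cKO cocaine replicate 2, and it was 2 without WT saline replicate 3. The genotype count was 0 without cKO cocaine replicate 1 and 2 without WT saline replicate 2 or cKO saline replicate 2. The 6 separated in WT came without WT cocaine replicate 3 (5 without WT saline replicate 1), and in cKO 6 came without cKO cocaine replicate 1 and 7 without cKO saline replicate 2. Without cKO saline replicate 3, 1 member, Barx1, passed for the difference and separated downwards in cKO. Tlx1 held p of at most 0.05 in 10 of 11, and gave p = 0.0625 without cKO cocaine replicate 2 (exact permutation test).

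For equal peak numbers and scaling, reversals within a genotype are listed only where its groups separated with the lists as deposited. Other members turned too, since Lbx2, Uncx and Barhl1 separated downwards in WT under scaling. Equal peak numbers reversed the pooled cocaine difference at Lbx1 (-10.2 points), Uncx (-6.39), Barx1 (-2.02) and Tlx3 (-2.81), and the cKO difference at Uncx (-15.5) and Barhl1 (-0.565). Scaling reversed the pooled difference at Lbx1 (-39.3), Lbx2 (-6.63), Uncx (-35.5), Barx1 (-25.9), Barx2 (-0.181), Barhl1 (-14.0), Barhl2 (-21.6), Tlx1 (-21.0) and Tlx3 (-18.3), the WT difference at Barx2 (-0.185), Barhl2 (-20.9) and Tlx1 (-18.7), and the cKO difference at Uncx (-34.4), Barhl1 (-12.7) and Tlx1 (-23.3). At Lbx1 the pooled difference ran from -0.216 (without cKO cocaine replicate 2) to 2.60 with 1 library left out. Under the scaling, 50.1% of genes with a window peak in all 11 lists were below 0, and a domain of like width falls by construction where lists are longer. The limits of q at most 0.05 and 0.01 reversed no pooled cocaine difference. At 0.01 the cKO difference at Barx1 went from -0.615 to 4.35 and the WT difference at Lbx1 from -0.0808 to 1.71, and the genotype effect was below 0 at 9 members instead of 8. The cause of the reversals with equal peak numbers was not tested.

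Same-numbered libraries deviated together in WT with r = 0.481, 0.229 and -0.318, and in cKO with r = 0.655 and 0.766, where both replicates 1 stood apart. As 1 WT pair did not deviate together and the labels name no shared litter or day, the numbers were not taken to pair the samples. With a replicate block, which leaves out cKO saline replicate 3 and allows no p below 0.0625, 0 members reached p of at most 0.05, and Tlx1 gave 8.76 points (exact permutation p = 0.0625).

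Median domain widths with no gap joined were 18210 bp at Lbx1, 16238 at Uncx, 14102 at Barx1, 2727 at Barx2, 8821 at Barhl1, 7664 at Barhl2, 8333 at Tlx1 and 11858 at Tlx3. Joined over 3 kb they were 26375 at Lbx1, 9806 at Lbx2, 20624 at Barx1, 14567 at Barhl1, 25330 at Barhl2 and 25201 at Tlx1. Over the gene body alone the Lbx2 width was 2769 bp.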
